A study of Saccharomyces cerevisiae with 20 samples.

Results

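Chromosome-end ORFs are the genes nearest to the telomeres of budding yeast. They were chosen from systematic names alone, in which the number of an ORF counts outwards from the centromere along its chromosome arm. On each of the 32 arms of the 16 chromosomes, every ORF carrying one of the 7 highest numbers was taken, so that number 1 from the end is the outermost. This gave 282 ORFs, of which 6 had no values, 1 held a value above 20 in size and 2 were left out by name. The remaining 273 ORFs, between 6 and 16 per arm, were compared with the other 6403 of the 6676 ORFs analysed. Apart from that 1 ORF with an extreme value, no measured level entered the rule.

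Gcn5, acetylated H3K18 (H3K18ac), acetylated H4K16 (H4K16ac) and histone H3 were measured by chromatin immunoprecipitation on tiling arrays in a haploid MATα strain carrying a myc tag on Gcn5, which all samples share. Cells grew at 30 °C in YPD and were sampled during normal growth (A), 1 h after transfer to 1 M KCl (B), after adaptation to KCl (C), 1 h after return to medium without KCl (D) and after recovery over a few generations (E). There were 20 files, 1 for each antibody and state, and the 2 cultures named in the methods are not kept apart in them. No test between states or groups of ORFs was therefore possible, and the spread given beside a difference is its SD over the 5 states.

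In yeast, chromatin next to telomeres is silenced by the Sir2, Sir3 and Sir4 proteins. Sir2 removes the acetyl group from H4K16, which the acetyltransferase Sas2 adds, and Sir3 binds the deacetylated tail. Gcn5 is the catalytic subunit of the SAGA complex and acetylates lysines of the H3 tail, K18 among them. Silencing spreads inwards over a limited distance and differs between chromosome ends. Some of the genes found there belong to repeated families, such as the seripauperins and the COS genes, that are mostly expressed at a low level in rich medium.

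A level is the mean over the central 40% of the ORF, in arbitrary log units of unnamed base, after the 5 states of each antibody were brought to the same median. Chromosome-end ORFs had less H3K18ac and less H4K16ac than the other ORFs, more H3, and about the same Gcn5. The median H3K18ac of chromosome-end ORFs was -0.11, -0.06, -0.10, -0.11 and -0.09 in states A to E. The other ORFs had 0.18, 0.23, 0.20, 0.20 and 0.21. The difference lay between -0.31 and -0.29 in every state, with a mean of -0.30 ± 0.0081 (SD over 5 states). This narrow range belonged to the centre of the ORF with all ORFs included. The difference was closer to 0 in B than in A by 0.00021 there, by 0.04 over the whole ORF, by 0.07 over the region 5′ of it, by 0.05 over the region 3′ of it, and by 0.04 at the centre without the ORFs with filled-in values described further on. The interquartile ranges of both groups overlapped in each state.

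Median H4K16ac was -0.13, -0.02, -0.05, -0.13 and -0.10 at chromosome ends in states A to E. It was 0.08, 0.11, 0.10, 0.09 and 0.10 in the other ORFs. The mean difference was -0.18 ± 0.040. It was closest to 0 in both KCl states, at -0.13 in B and -0.15 in C, against -0.22 in A, -0.22 in D and -0.20 in E.

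H3 stood higher at chromosome ends, with medians of 0.36, 0.36, 0.34, 0.36 and 0.33 in states A to E. The other ORFs had 0.26, 0.26, 0.25, 0.27 and 0.27. The mean difference was 0.087 ± 0.019 and was smallest in state E, at 0.05. The Gcn5 difference lay between -0.02 and 0.01 over the states, no larger than its own spread (mean -0.0073 ± 0.013). Subtracting H3 from the same bins gave mean differences of -0.36 for H3K18ac, -0.29 for H4K16ac and -0.08 for Gcn5, so the lower acetylation was not smaller per H3.

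**Figure D1:**
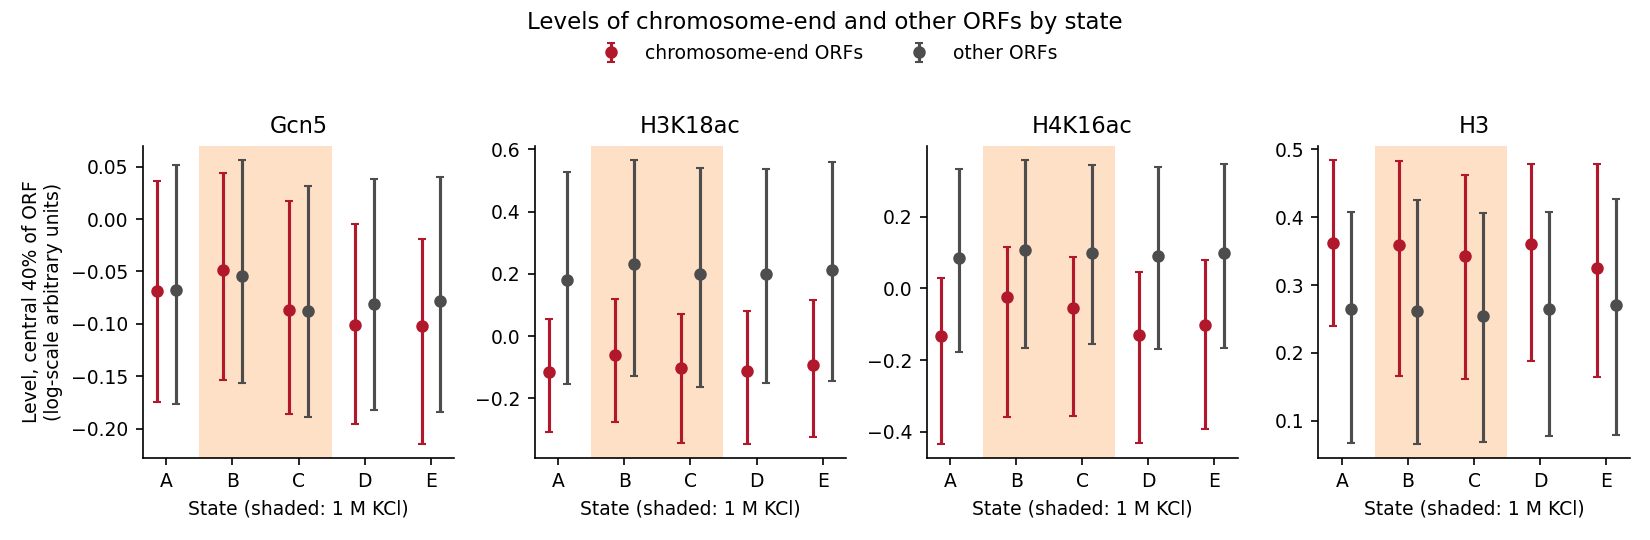
Level over the central 40% of the ORF (y axis, log-scale arbitrary units) in states A to E (x axis, KCl states shaded) for 273 chromosome-end ORFs (red, left) and 6403 other ORFs (grey, right). Points are medians and bars span the first to the last quartile over ORFs. The red H4K16ac median stands at -0.13 in A, -0.02 in B and -0.13 in D, while the red H3K18ac median stays about 0.30 below the grey one.

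Ranked by mean level over the 5 states among all 6676 ORFs, 63 chromosome-end ORFs (23.1%, against 10% of all ORFs by construction) were in the lowest 10% for H4K16ac and 8 in the highest. For H3K18ac, 39 were in the lowest 10% and 2 in the highest. For H3 the order was turned, with 13 in the lowest 10% and 40 in the highest. For Gcn5, 28 were in the lowest 10% and 8 in the highest. ORFs at the 7 lowest numbers of each arm, next to the centromeres, gave a second comparison with 253 ORFs. Against them the mean difference was -0.40 for H3K18ac, -0.27 for H4K16ac, 0.20 for H3 and 0.0089 for Gcn5.

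The flanks of the ORFs differed more than their centres. Over the 5′ intergenic region (IGR), the mean difference was -0.62 for H3K18ac, -0.54 for H4K16ac and 0.41 for H3. Over the 3′ IGR it was -0.47 for both H3K18ac and H4K16ac and 0.26 for H3. In most yeast genes the promoter is depleted of nucleosomes and flanked by highly acetylated ones. The median H3 profile of chromosome-end ORFs reached its lowest 5′ IGR value at 0.16, against -0.39 in the other ORFs, so the dip in front of the start codon was shallow. The median H4K16ac profile peaked at -0.06 in the 5′ IGR of chromosome-end ORFs and at 0.54 in that of other ORFs. The highest 5′ IGR value of H3K18ac was -0.05 in chromosome-end ORFs and 0.53 in the others. Both H3K18ac profiles were highest within the ORF, at -0.03 in chromosome-end ORFs and 0.56 in the others.

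Array values at chromosome ends were more often filled in. A bin exactly midway between its neighbours was taken as filled in, and 68 of the 273 chromosome-end ORFs (24.9%) had such a bin in the central 40%, against 273 of the 6403 other ORFs (4.26%). Also, 66 chromosome-end ORFs (24.2%) were absent from the RefSeq gene table used for names, against 609 of the other ORFs (9.51%). Among protein-coding ORFs with no such bin anywhere, 153 at chromosome ends and 5233 others, the flatter profiles remained in part. The lowest 5′ IGR value of H3 was then 0.0031 at chromosome ends and -0.45 in the others, and the highest of H4K16ac was 0.12 at chromosome ends and 0.61 in the others. In the 3′ IGR the highest H4K16ac value was 0.24 at chromosome ends and 0.60 in the others.

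**Figure D2:**
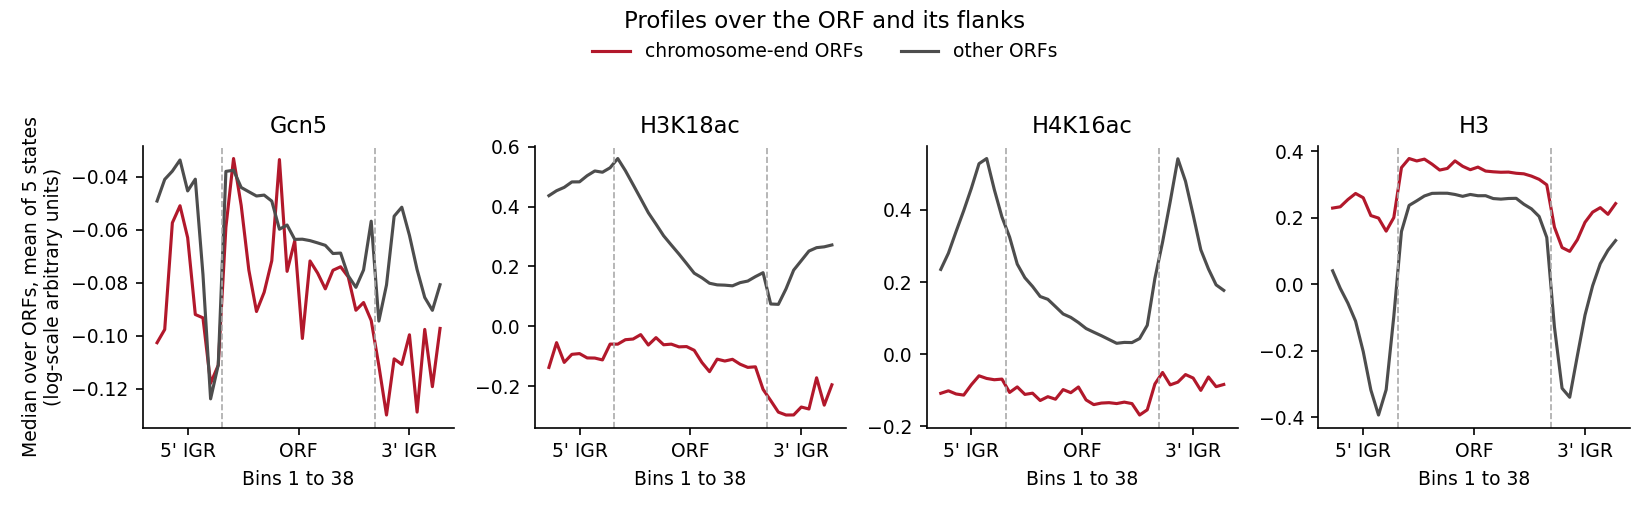
Median over ORFs of the mean of the 5 states (y axis, log-scale arbitrary units) in 38 bins (x axis: 9 of the 5′ IGR, 20 of the ORF, 9 of the 3′ IGR, dashed lines between them) for 273 chromosome-end ORFs (red) and 6403 other ORFs (grey). The grey H3 line dips to -0.39 in the 5′ IGR and the red one only to 0.16, and the grey H4K16ac peaks of 0.54 have no counterpart in the red line. In protein-coding chromosome-end ORFs with no filled-in bin, not drawn here, H4K16ac reached 0.12 in the 5′ IGR and 0.24 in the 3′ IGR.

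Levels changed along the chromosome end. Median H4K16ac, averaged over the states for each ORF, was -0.19 at the outermost number and -0.27, -0.16, -0.07, -0.08, 0.04 and 0.04 at numbers 2 to 7 from the end. Beyond the limit of the rule it was 0.08 at numbers 8 to 14, 0.11 at 15 to 21 and 0.09 from number 22 on. H4K16ac thus reached the level of the interior within about 14 numbers. The median at the 2 outermost numbers minus that at numbers 6 and 7 lay between -0.32 and -0.25 in every state (mean -0.29 ± 0.029). Without the ORFs with filled-in central bins, which are frequent at the outermost numbers, this difference was -0.65.

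H3K18ac followed another course. Its median was lowest at number 3, at -0.22, with -0.03 at number 1 and -0.01 at number 7. It was 0.05 at numbers 8 to 14, 0.12 at 15 to 21 and 0.22 from 22 on, so it was still higher further in where H4K16ac had levelled off. The difference of outer from inner numbers was -0.10 ± 0.036, and -0.26 without ORFs with filled-in bins. Gcn5 ran the other way, with a difference of 0.09 ± 0.031, and H3 differed by 0.04 ± 0.021. The higher H3 was not limited to the ORFs of the rule. Median H3, averaged over the states for each ORF, was 0.34 in the 273 chromosome-end ORFs. It was 0.36 at numbers 8 to 14, 0.32 at 15 to 21 and 0.26 from 22 on. The 37 ORFs just inside the limit of the rule, at number 7, and the 34 just outside, at number 8, had the same median H4K16ac of 0.04. Their median H3K18ac was -0.01 at number 7 and 0.09 at number 8, and their median H3 was 0.33 at number 7 and 0.44 at number 8.

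**Figure D3:**
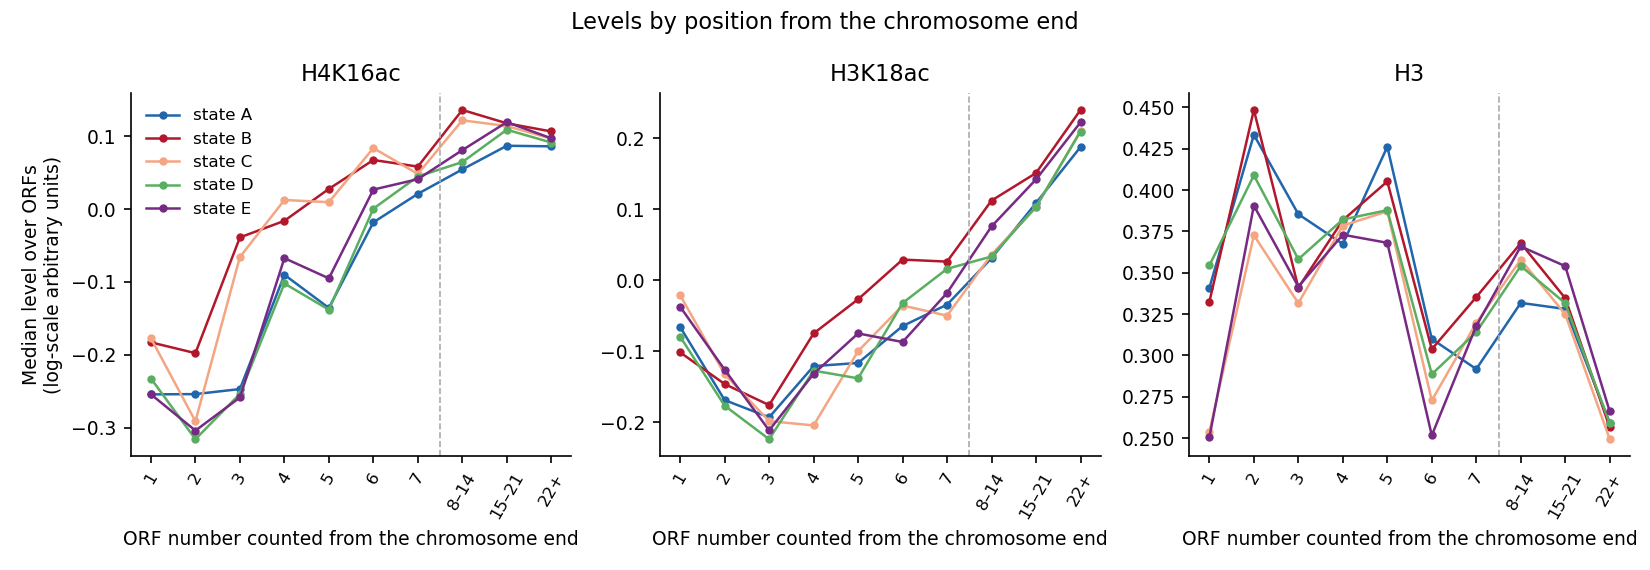
Median level over ORFs (y axis, log-scale arbitrary units) by ORF number counted from the chromosome end (x axis, the last 3 positions pool numbers 8 to 14, 15 to 21 and 22 or more, the dashed line marks the limit of the rule), 1 line per state. At number 3 the H4K16ac lines of states B and C lie at -0.04 and -0.07 and those of A, D and E at -0.25 to -0.26. At number 4 the H3K18ac lines span -0.20 in C to -0.07 in B.

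The second feature of the chromosome ends was a reversible gain of H4K16ac in KCl. A level was said to have risen or fallen between states when it changed by more than 0.25. In B against A, H4K16ac rose in 20 chromosome-end ORFs, or 7.33% (3.22% of all ORFs), and fell in 3 (2.19% of all). In C against A it rose in 28, or 10.3% (4.97% of all), and fell in 3 (1.21% of all). In D against C it rose in 2 (0.989% of all) and fell in 27, or 9.89% (4.28% of all). In E against A it rose in 1 (1.99% of all) and fell in 5 (0.944% of all).

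The gain was not limited to ORFs past the threshold. H4K16ac was higher in B than in A in 212 of the 273 chromosome-end ORFs (77.7%, against 60.1% of all ORFs), with a median change of 0.09, against 0.02 in the other ORFs. It was higher in C than in A in 200 (73.3%, against 57.9% of all ORFs), with a median change of 0.07, against 0.02 in the others. It was lower in D than in C in 209, with a median change of -0.06, against -0.01 in the others. H4K16ac was higher in D than in C in 23.4% of chromosome-end ORFs and 43.8% of all ORFs. In 129 chromosome-end ORFs (47.3%) both KCl states lay above all 3 other states, which held for 21.2% of all ORFs, and in 12 they lay below all 3 (11.4% of all). Of the 202 outside the listed repeated families, 86 (42.6%) had both KCl states above.

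For the other antibodies, both KCl states stood above all others in 32 chromosome-end ORFs for H3K18ac, or 11.7% (9.3% of all ORFs), in 38 for Gcn5, or 13.9% (14.3% of all), and in 30 for H3, or 10.99% (15.6% of all). They stood below all others in 25 for H3K18ac (12.1% of all), 19 for Gcn5 (16% of all) and 28 for H3 (17.5% of all). For Gcn5 the mean of the KCl states lay slightly above that of the other states in many ORFs, without a gain over A in C. Gcn5 was higher in C than in A in 34.4% of chromosome-end ORFs (37.2% of all). Its median change in B against A was 0.015, against 0.013 in the other ORFs. Its medians at chromosome ends were -0.07, -0.05, -0.09, -0.10 and -0.10 in A to E, lowest in D and E. Its mean over B and C was above its mean over A, D and E in 71.8% of chromosome-end ORFs and 52.9% of the other ORFs, with median differences of 0.03 at chromosome ends and 0.0051 in the others, and the median difference of the arm was above 0 in 28 of 32 arms. For H4K16ac the shares were 82.1% and 58.7%.

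The H4K16ac difference between chromosome-end and other ORFs was closer to 0 by 0.07 in the mean of B and C than in the mean of A, D and E, over which its SD was 0.010. This contrast was chosen after the levels by state had been seen. It was 0.05 after H3 was subtracted and 0.05 without the repeated families. ORFs were also split at the lowest 10% of mean H4K16ac over the 5 states, the KCl states included. Above it, the median change in B against A was 0.09 in 210 chromosome-end ORFs and 0.02 in 5798 others, and 7.62% of these chromosome-end ORFs and 2.23% of these others rose. In C against A the medians there were 0.06 at chromosome ends and 0.01 in the others. Within the lowest 10%, B against A changed by a median of 0.09 in 63 chromosome-end ORFs and 0.05 in 605 others, and 6.35% of these chromosome-end ORFs and 10.9% of these others rose. In C against A the medians within it were 0.12 at chromosome ends and 0.09 in the others, and 17.5% of these chromosome-end ORFs and 23.6% of these others rose.

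By arm, the median H4K16ac of the chromosome-end ORFs was below that of the other ORFs in 30 of 32 arms, that of H3K18ac in 31, and that of H3 above in 29. Gcn5 was below in 18. The H4K16ac difference ranged from -0.65 on the left arm of XV to 0.15 on the right arm of VI. H4K16ac was higher in the KCl states than in the others in 30 of 32 arms, with a median gain over the ORFs of the arm of up to 0.20, on the right arm of IX. The exceptions were the right arm of XI, at -0.04, and the left arm of XIII, at -0.0054. D was below C in 30 arms. These arm values are not relative to the other ORFs, and all arms share the same arrays. The same H4K16ac difference of KCl from other states had a median of 0.014 in the other ORFs, with a gain in 58.7%. In centromere-proximal ORFs it was 0.023, with a gain in 68.4%, and both KCl states lay above all others in 27.3%.

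**Figure D4:**
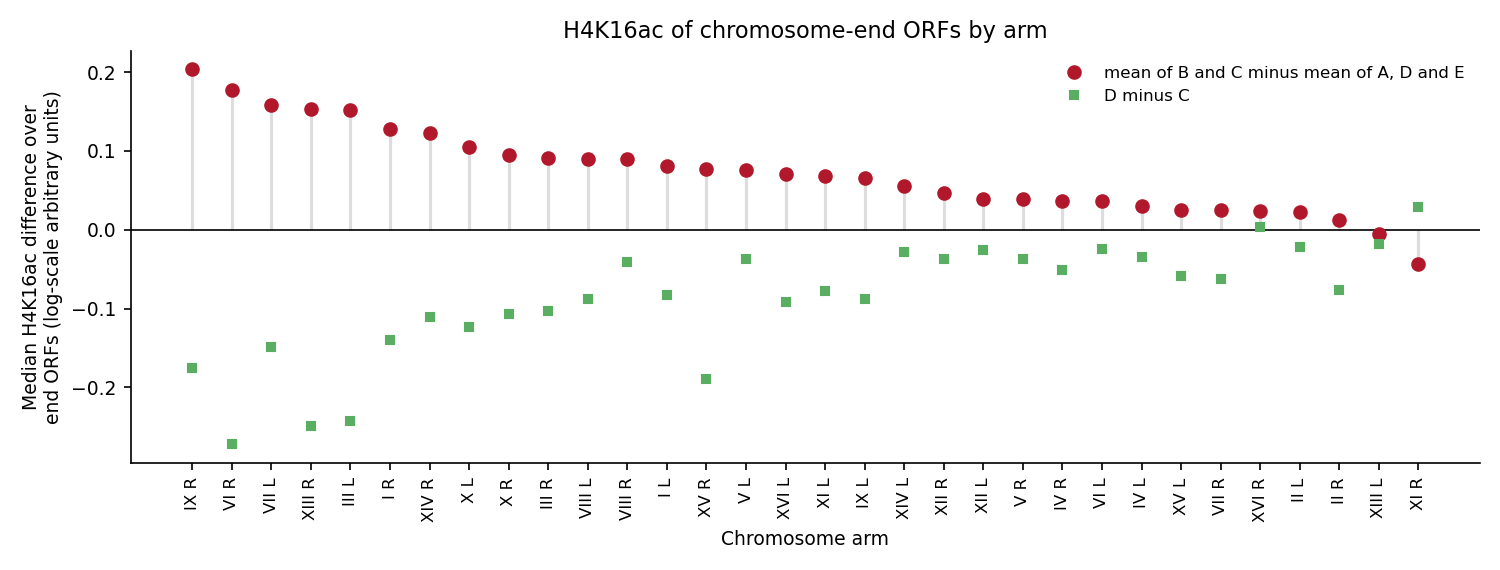
Median H4K16ac difference over the chromosome-end ORFs of each arm (y axis, log-scale arbitrary units) for the mean of B and C minus the mean of A, D and E (red circles) and for D minus C (green squares), with the 32 arms on the x axis ordered by the first. All but 2 red circles lie above 0 and all but 2 green squares below.

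The lowest H4K16ac of all chromosome-end ORFs was found at the 3 outermost numbers of the left arm of III. YCL076W had -1.96, -1.75, -1.59, -2.40 and -1.99 in states A to E. YCL075W, listed as a pseudogene, had -2.14, -2.08, -1.74, -2.45 and -2.19. YCL074W, 1 number further in, had -2.13, -1.77, -1.57, -2.18 and -1.999. All 3 were highest in C and lowest in D, and the first and second of them were also among the 3 ORFs with most H3, with means of 0.95 and 0.93. The same arm carries HMLALPHA2 at number 7, the silent copy of the mating-type gene for the α2 repressor. Its H4K16ac was -0.21, -0.22, -0.34, -0.26 and -0.29, lower in C than in A. In a MATα strain its sequence is also present at the active MAT locus, so signals of both cannot be told apart.

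YFR057W, the outermost ORF of the right arm of VI and a common readout of telomeric silencing, had the lowest H3K18ac of all 273, at -1.67, -1.84, -1.81, -2.04 and -2.40 in A to E. Its H4K16ac was -1.34, -1.09, -0.97, -1.82 and -1.38, highest in both KCl states. Its Gcn5 was 0.64 in B against 0.14 in A, and -0.10, -0.05 and -0.14 in C, D and E. Gcn5 was thus highest at the ORF in B, and in A it also lay above the upper quartile of chromosome-end ORFs, 0.04. Its H3 was low, with a mean of -0.69. YFR056C, at the neighbouring number, had among the highest H3K18ac (mean 1.11), H4K16ac (1.204) and Gcn5 (0.50) of the chromosome ends and among the lowest H3 (-0.82). These adjacent ORFs thus lay at opposite ends of the range for both acetylation marks and at the same end for H3.

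On the left arm of XV, YOL166C had the lowest Gcn5 of the 273, with a mean of -0.88, and H4K16ac of -1.79, -1.34, -1.22, -1.72 and -1.68 in A to E. YMR326C, outermost on the right arm of XIII, had the lowest H3 among ORFs with no filled-in central bin, with a mean of -0.90, and H4K16ac between -1.85 and -1.50 that was not higher in KCl. YHR217C on the right arm of VIII had the highest Gcn5, with a mean of 0.70 and 1.00 in B against 0.72 in A. The highest H3K18ac means belonged to COX14, which takes part in cytochrome c oxidase assembly (1.14), YFR056C, and ARR2, an arsenate reductase (0.80).

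COS12, the outermost ORF of the left arm of VII, had the largest H4K16ac gain of the 273. Its level was -0.83 in A, 0.10 in B, 0.10 in C, -0.67 in D and -0.64 in E. It lay about 0.93 higher in B than in A, and fell by 0.77 in D against C. Its H3K18ac was also higher in B than in A, by 0.36, as was its Gcn5, by 0.28. COS genes encode membrane proteins that help sort other membrane proteins for degradation in the vacuole, and 11 are at chromosome ends. All 11 had more H4K16ac in B and in C than in A, with medians of -0.13, 0.07, 0.03, -0.12 and -0.21 over the family in A to E. Over all ORFs, B was above A in 60% and C above A in 58%. Copies of a family that share probe sequence are not independent measurements, and the likeness of the COS genes was not measured. The next number on that arm, YGL262W, picked after its values were seen, had -0.78, -0.35, -0.39, -0.94 and -0.88.

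A second set of large gains lay in a repeated block present on 3 arms, noticed after the values were seen. The block holds an ERR gene, which encodes an enolase-related protein, beside a gene for an Hsp31-type chaperone of the DJ-1 family. ERR1 had -0.40, 0.02, 0.0011, -0.35 and -0.29 in A to E. ERR2 had -0.41, 0.03, -0.0035, -0.38 and -0.28. ERR3 had -0.50, -0.04, -0.03, -0.46 and -0.40. All 3 stood near 0 in KCl and near their starting level 1 h after its removal. The neighbouring chaperone genes had the same course, with -0.27, 0.03, 0.01, -0.27 and -0.28 in HSP33, -0.24, 0.09, 0.06, -0.24 and -0.24 in HSP32 and -0.26, 0.05, 0.05, -0.25 and -0.23 in SNO4. YOR392W, beside ERR1 and HSP33, had the largest level in KCl of the block, 0.70 in B and 0.73 in C, against 0.23, 0.25 and 0.20 in A, D and E. H3K18ac of the ERR genes was higher in B than in A by 0.24 to 0.27, and their H3 changed by -0.03 to -0.02 in C against A. These ORFs are repeated copies whose sequence likeness was not measured, and they are not taken as independent measurements.

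The seripauperins (PAU genes), cell-wall-related proteins of a large family induced under anaerobic growth, made up 19 chromosome-end ORFs. Their H4K16ac was low throughout, with medians of -0.83, -0.68, -0.69, -0.82 and -0.76 in A to E and member means between -1.15 in PAU3 and -0.28 in PAU9. It was higher in B than in A in 18 of 19, higher in C than in A in 19, and lower in D than in C in 19. Over all ORFs, B was above A in 60%, C above A in 58% and D above C in 44%. The sequence likeness of these copies was not measured, and copies that share probe sequence are not independent measurements. PAU3 had -1.22, -1.07, -0.97, -1.24 and -1.27. The 5 seripauperins elsewhere in the genome had a median of -0.34. Median H3 was 0.50 in the chromosome-end copies and 0.49 in the 5 elsewhere, and median H3K18ac was -0.23 at chromosome ends and -0.0019 elsewhere. Their Gcn5, with a median of 0.02, was above the median of the other ORFs.

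**Figure D5:**
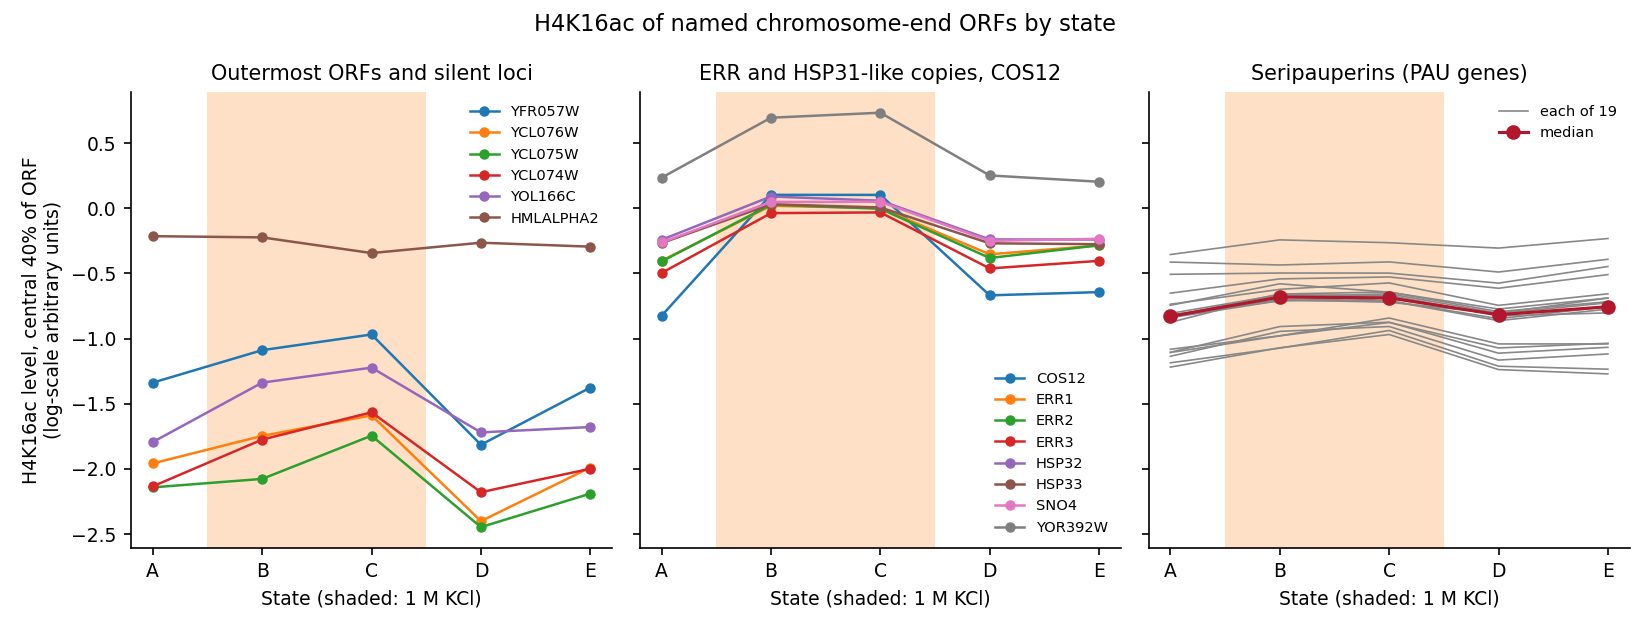
H4K16ac level over the central 40% of the ORF (y axis, log-scale arbitrary units) in states A to E (x axis, KCl states shaded). The left panel shows 5 ORFs of very low level and HMLALPHA2, the middle panel COS12 with the ERR and chaperone block, and the right panel each of 19 seripauperins (grey) with their median (red). COS12 stands at 0.10 in both KCl states and at -0.83 in A, while HMLALPHA2 is not higher in KCl.

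The other listed families with members at chromosome ends were small. The hexose transporter genes HXT9, HXT15, HXT16 and HXT17 had a family median of -0.11, 0.0025, -0.06, -0.11 and -0.07 in A to E. All 4 were higher in B than in A, as were 60% of all ORFs. The acid phosphatase genes PHO11 and PHO12, whose sequence likeness was not measured, sit on arms of I and VIII. Their medians were -0.20, -0.01, 0.05, -0.18 and -0.22. The 3 AAD genes, for putative aryl-alcohol dehydrogenases, had a median H4K16ac of -0.43, and AAD15 had -0.68, -0.51, -0.41, -0.64 and -0.55. IMD2, for an IMP dehydrogenase, had -1.07, -0.9995, -0.88, -1.27 and -1.13. The 8 members for maltose and isomaltose use had a median of 0.22, above that of the other ORFs. Of the families with 2 or 3 members, the THI genes of thiamine synthesis had a median of 0.32. The flocculins had -0.18, iron uptake genes -0.19 and the VTH sorting receptors -0.33. The list for vitamin B6 synthesis had a median of 0.13, with SNZ2 at 0.13 and SNO2 at 0.30. It also took in SNO4 by its name, at -0.13, the chaperone gene of the ERR block above.

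The 8 YRF1 ORFs, which encode the helicase of the Y′ elements next to the telomeres, all had filled-in central bins. Their median H4K16ac was -0.07, 0.04, 0.06, -0.05 and 0.08, so these values rest partly on interpolation. The 6 pseudogenes had a median H4K16ac of -1.17, against -0.06 in the 12 elsewhere. Outside the listed families, 130 protein-coding ORFs at chromosome ends had a median of 0.0049, against 0.09 in 5723 such ORFs elsewhere. The 66 ORFs absent from the gene table had -0.25, against 0.18 in 609 elsewhere.

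Fewer chromosome-end ORFs passed the threshold in C against A for the other antibodies, with 15 for H3K18ac, 15 for H3 and 2 for Gcn5, against 31 for H4K16ac. Of all ORFs, 2.91% rose and 3.8% fell for H3K18ac, and 3.43% rose and 2.41% fell for H3. For Gcn5, 1.26% rose and 1% fell, and for H4K16ac 4.97% rose and 1.21% fell. The same threshold was used for antibodies of different spread. In B against A, H3K18ac rose in 24 chromosome-end ORFs (7.37% of all ORFs) and fell in 6 (4.79% of all), and in C against A it rose in 5 (2.91% of all) and fell in 10 (3.8% of all). In D against C it rose in 13 (6.1% of all) and fell in 3 (5.02% of all), a split that depended on the scaling, with 11 rises and 10 falls in the values as deposited and 11 rises and 13 falls after quantile normalization. In E against A it rose in 5 (1.23% of all) and fell in 8 (2.98% of all). The 24 make up 8.79% of the chromosome-end ORFs, close to the background share.

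Gcn5 rose in 12 in B against A (3.92% of all) and fell in 1 (2.79% of all). In C against A it rose in 1 (1.26% of all) and fell in 1 (1% of all), in D against C it rose in 1 (1.39% of all) and fell in 7 (1.21% of all), a count that was 1 without the ORFs with filled-in bins, and in E against A it rose in 1 (0.659% of all) and fell in 5 (0.944% of all). H3 rose in 4 in B against A (4.09% of all) and fell in 12 (4% of all), and in C against A it rose in 1 (3.43% of all) and fell in 14 (2.41% of all). In D against C it rose in 7 (1.32% of all) and fell in 1 (1.59% of all), and in E against A it rose in 7 (5.5% of all) and fell in 20 (3.4% of all). H3 falls in KCl-adapted and recovered cells were thus more frequent than H3 rises at chromosome ends, where over all ORFs the rises were more frequent. Without the ORFs with filled-in bins, H3 fell in 9 and rose in 1 in C against A, and fell in 9 and rose in 6 in E against A.

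The largest H3K18ac gains lay in ORFs between MAL genes, which encode the maltose permease, maltase and their activator. YGR290W, between MAL11 and MAL12 by its number, had -0.31, 0.87, -0.06, 0.53 and -0.08 in A to E. YBR298C-A, between MAL31 and MAL32, had -0.20, 0.70, -0.04, 0.67 and -0.32. The activator gene MAL33, picked like MAL32 after its values were seen, had -0.23, 0.15, -0.21, 0.35 and -0.08. These 3 ORFs were high 1 h after each change of medium and lower in the other states, a course that the H4K16ac of the chromosome ends did not follow. This H3K18ac course was not limited to the MAL genes and the ORFs between them. On the arm of MAL33, and also picked after the values were seen, TYC1 had 0.44, 1.07, 0.10, 1.35 and 0.61. PHO89, at the same number as TYC1, had -0.22, -0.08, -0.37, 0.12 and -0.17. Of the 8 listed genes of maltose and isomaltose use, 3 had more H3K18ac in B than in A, and the median change was -0.02. In MAL32 itself H3K18ac was 0.17 in B and 0.14 in D, against 0.04, -0.02 and 0.03 in A, C and E. The largest H4K16ac fall in B against A that was described belonged to YKR104W, at -0.27 in B and 0.03 in A. The largest H3 fall described was in YAL068W-A, at 0.06 in B and 0.61 in A.

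Across the 273 chromosome-end ORFs, the mean levels of H3K18ac and H4K16ac ran together with Spearman's rho of 0.66, against 0.60 across the other ORFs. Their changes in B against A did so with a rho of 0.58, against 0.53. The points share arrays, probes and neighbouring or repeated sequence, and ORFs are not independent replicates. For H4K16ac and H3, rho between mean levels was -0.13 at chromosome ends and -0.24 in the other ORFs.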

How the data were processed

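DNA from each immunoprecipitation was hybridised by the authors to Affymetrix tiling arrays of the yeast genome, and Tiling Analysis Software gave the signal. The authors set the 5 states to one median over positions not named. Each deposited score is a log-scale signal in arbitrary units, binned by the authors into 38 bins per ORF. The genome build is not given in the sources used here. The methods give the same catalogue number for the H3K18ac and H3 antibodies. For arrays, depth does not apply, and their number limits the precision.

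Samples were grouped by antibody and state from their titles. For each antibody the 5 states were brought to the mean of their deposited medians over all bins of 6676 ORFs, and the 8 bins of the central 40% were averaged, in Python 3.11.15 with numpy 2.4.6 and pandas 2.3.3. Names came from the RefSeq table of assembly R64, in which 207 of 273 chromosome-end ORFs were found. The Gcn5 file of state A held 2911 bins of exactly 0 and the H4K16ac file of state E 1325, of which 71 and 28 were in chromosome-end ORFs. Described ORFs had no filled-in central bin and were, per antibody, the 3 highest and 3 lowest by mean level and the 2 largest changes each way in B against A, besides YFR057W, HMLALPHA2 and the listed families. Of these, 1 ORF carrying the number of an ORF left out by name is not reported here. Members and lists were chosen with earlier results of these data known. The functions were tested on simulated data.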

Additional observations from a re-analysis of the deposited data

How the results depend on the processing

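No direction reversed under any alternative where the difference exceeded its spread over the states. The values that moved by more than that spread follow. For H3K18ac the mean level difference was -0.37 over the whole ORF, -0.62 over the 5′ IGR, -0.47 over the 3′ IGR, -0.36 with H3 subtracted, -0.33 with means over ORFs, -0.34 without ORFs with filled-in bins, -0.26 in protein-coding ORFs, -0.28 without repeated families, -0.28 without seripauperins, -0.34 with the 5 highest numbers, -0.28 with the 10 highest, -0.35 in matched length categories and -0.40 against centromere-proximal ORFs. For H4K16ac it was -0.24, -0.54, -0.47, -0.29 and -0.29 under the first 5 of these, -0.14 in protein-coding ORFs, -0.24 with the 5 highest numbers and -0.27 against centromere-proximal ORFs. For H3 it was 0.11 over the whole ORF, 0.41 and 0.26 over the 5′ and 3′ IGR, 0.11 with means, 0.065 without repeated families, 0.13 in matched length categories and 0.20 against centromere-proximal ORFs. For Gcn5, whose difference did not exceed its spread, it was -0.024 and -0.045 over the 5′ and 3′ IGR, -0.082 with H3 subtracted, -0.041 with means, -0.023 without ORFs with filled-in bins, -0.021 without repeated families and 0.0089 against centromere-proximal ORFs. The H4K16ac gain in KCl of 0.071 was 0.054 over the whole ORF, 0.049 with H3 subtracted, 0.095 without ORFs with filled-in bins, 0.086 in protein-coding ORFs, 0.052 without repeated families, 0.059 with the 10 highest numbers and 0.092 in matched length categories. The difference of outer from inner numbers was -0.13 (whole ORF) and -0.26 (without ORFs with filled-in bins) for H3K18ac, -0.26 (H3 subtracted) and -0.65 (without ORFs with filled-in bins) for H4K16ac, and 0.079 without repeated families and 0.078 without ORFs with filled-in bins for H3. H4K16ac rose in 65, 1 and 38 ORFs in B against A at a change of 0.15, at 0.5 and with H3 subtracted, and in 65 and 3 in C against A at 0.15 and 0.5. It fell in 64 and 6 in D against C at those sizes. With H3 subtracted, Gcn5 rose in 36 in place of 12 ORFs in B against A, and H3K18ac rose in 37 in place of 5 in E against A. Over all the smaller counts and values, these included, 141 stayed within their limits and 130 moved. Changes of the level difference in B against A that lay within their spread for Gcn5, H3K18ac and H3 could change sign, and that of H3, -0.00048, was 0.070 against centromere-proximal ORFs. For changes in B against A the spread was the SD over A, C, D and E, and for the gain in KCl that over A, D and E. The change of the H4K16ac difference in B against A, 0.086, moved by less than 0.032, a spread that includes KCl state C. It ranged from 0.060 with the 5 highest numbers to 0.11 in matched length categories. The cause of these shifts was not tested. No paired analysis was possible because each state and antibody has 1 file and the labels give no replicate numbers.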
